A study of Homo sapiens with 12 samples.

Results

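The genes described here are the small nucleolar RNA host genes, long RNAs whose gene bodies contain small nucleolar RNAs (snoRNAs). They were taken as every gene with a symbol of SNHG plus a number, together with GAS5, ZFAS1 and EPB41L4A-AS1, and were matched to the count tables by Ensembl identifier. This gave 31 of the 58051 genes counted, of which 29 had enough counts to be tested, and SNHG18 and SNHG27 had 0 or 1 count in every library. The genes were chosen by name, and the set was selected on the measured SNHG19 counts, which had been seen to be high in the PFDN5 siRNA libraries after serum, so for SNHG19 in those libraries the values are given as a description and without a test. RNA-seq was made from HCT116 cells, an established line of human colon carcinoma epithelium, in 12 libraries that form 6 groups of 2. Cells received a control siRNA (siControl), an siRNA against PFDN2 (siPFDN2) or an siRNA against PFDN5 (siPFDN5), and 24 h later all were starved of serum for 48 h. PFDN2 and PFDN5 are subunits of prefoldin, a chaperone of newly made proteins. Before-serum groups were collected at that point, and after-serum groups 90 min after serum was given back, so that every control was also transfected and starved. The labels do not say that the replicates were separate cultures, so the p-values measure only the spread between these libraries, which may be technical.

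Most human snoRNAs are cut out of introns, and the host genes treated here are a class in which the spliced RNA is mostly not translated into a conserved protein. Box C/D snoRNAs guide ribose methylation and box H/ACA snoRNAs guide pseudouridine formation, chiefly in ribosomal RNA. Many spliced host RNAs are short-lived because nonsense-mediated decay removes them, and some start with a run of pyrimidines, as ribosomal protein mRNAs do, which links their translation and turnover to growth conditions.

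The snoRNAs of the 4 shortest hosts are shown first, since these hosts, SNHG19, SNHG9, SNHG25 and SNHG8, were also those with the largest rises in the libraries labelled siPFDN5 after serum. SNORD60, a box C/D snoRNA at chr16:2155023-2155105 on the minus strand of GRCh38, lies in the intron of SNHG19. SNORD104, also box C/D, lies in the intron of SNHG25 at chr17:64146083-64146152 on the plus strand. SNHG25 also holds SNORA50C, a box H/ACA snoRNA at chr17:64146339-64146471 (plus strand) that lies wholly in its exons. SNORA78 at chr16:1965184-1965310 (plus strand) and SNORA24 at chr4:118279190-118279320 (plus strand), both box H/ACA, lie in SNHG9 and SNHG8, inside bases that the annotation also counts as exon. The sequences are those of GENCODE release 29, from 5′ to 3′, with the box motifs TGATGA and CTGA, or the ACA near the end, in capitals.
SNORD60: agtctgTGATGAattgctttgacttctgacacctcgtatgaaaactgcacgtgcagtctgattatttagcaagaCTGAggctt
SNORD104: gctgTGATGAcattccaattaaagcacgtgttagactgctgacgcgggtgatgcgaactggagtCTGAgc
SNORA50C: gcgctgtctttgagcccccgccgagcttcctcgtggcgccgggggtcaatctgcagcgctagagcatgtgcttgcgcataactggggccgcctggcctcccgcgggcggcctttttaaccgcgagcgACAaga
SNORA78: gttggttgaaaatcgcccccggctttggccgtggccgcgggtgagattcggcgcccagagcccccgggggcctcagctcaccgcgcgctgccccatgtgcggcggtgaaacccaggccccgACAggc
SNORA24: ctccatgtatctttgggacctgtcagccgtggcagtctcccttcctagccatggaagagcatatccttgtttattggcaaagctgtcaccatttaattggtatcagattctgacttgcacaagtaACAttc

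Leaving aside SNHG6 and SNHG14, whose snoRNAs were not searched, 58 snoRNA entries lay in 27 hosts on the host's strand, and some entries are duplicates of one snoRNA under 2 names. Of these, 24 were box C/D and 23 were box H/ACA by name. TGATGA in the first 20 bases together with CTGA in the last 20 was found in 17 of the 24 box C/D entries, and ACA near the end in 21 of the 23 box H/ACA entries. Wholly outside the merged exons of their host were 23 of the 58 entries, 33 were wholly inside them and 2 partly. Counts over exons therefore also cover the snoRNA sequence in many hosts, SNHG29 with its 3 box C/D entries among them. The search used GENCODE 29 entries and is not complete. It found 0 in GAS5, where RefSeq places 11, SNORD44 and SNORD47 among them. Between the 2 annotations some other hosts differed in either direction, such as SNHG1 (7 against 9 in RefSeq) and SNHG7 (4 against 2).

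The starts of the host RNAs are shown for the members that begin with C and a run of C or T of at least 5 bases in all, beside 2 abundant members that do not. These are the first 40 bases from the annotated start in RefSeq (build GRCh38.p14), from 5′ to 3′, with the run in capitals.
SNHG19, chr16:2155319-2155358, minus strand: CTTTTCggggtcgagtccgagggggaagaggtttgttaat
SNHG32, chr6:31834916-31834955, plus strand: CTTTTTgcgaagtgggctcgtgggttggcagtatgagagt
ZFAS1, chr20:49278642-49278681, plus strand: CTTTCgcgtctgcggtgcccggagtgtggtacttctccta
SNHG5, chr6:85678694-85678733, minus strand: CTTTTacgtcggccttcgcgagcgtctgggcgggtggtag
SNHG12, chr1:28581834-28581873, minus strand: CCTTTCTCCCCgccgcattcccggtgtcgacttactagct
SNHG4, chr5:139274101-139274140, plus strand: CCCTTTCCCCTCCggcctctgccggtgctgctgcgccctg
SNHG29, chr17:16438987-16439026, plus strand: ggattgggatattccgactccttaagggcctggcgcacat
SNHG16, chr17:76557764-76557803, plus strand: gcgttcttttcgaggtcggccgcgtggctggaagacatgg

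Such a run stood at the annotated first base in 7 of the 27 members with a RefSeq start, or 25.93%. The other member with one was SNHG18, which was not expressed here. The share was 4.04% over all 27305 starts and 63.38% over the starts of 71 ribosomal protein genes. Allowing the run to begin within 10 bases of the annotated start, the shares were 59.26% of members, 33.29% of all starts and 83.1% of ribosomal protein genes. RefSeq starts can be some bases off, and a run is a feature of the sequence, not a measured start site.

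The libraries held between 59784425 and 136504590 counts over gene bodies and between 46158398 and 114454288 over exons, and values per library are given as CPM (the count relative to the TMM-scaled library total) over gene bodies unless exons are named. Before serum the PFDN2 RNA was at 7.55 and 8.49 CPM in siPFDN2 libraries against 11.5 and 11.2 in siControl, and after serum at 8.73 and 9.47 against 19.5 and 16.3. For PFDN5 RNA the values in siPFDN5 were 41.0 and 44.2 CPM before serum, against 76.8 and 68.9 in siControl. After serum it was at 67.5 and 68.6 against 67.9 and 74.0, so the labelled knockdown was not seen at the RNA level there, and those 2 are called the libraries labelled siPFDN5 after serum. PFDN2 RNA was also higher in siPFDN5 than in siControl, at 21.8 and 21.1 CPM before serum and 23.1 and 28.7 in the libraries labelled siPFDN5 after it, without overlap. Replicate 2 of siPFDN2 before serum stood apart from its partner. The SD across 12113 genes of the log2 CPM difference between the 2 replicates was 0.681 in that group and 0.117 to 0.301 in the others. This value belongs to the pair and does not tell which of its 2 libraries is unusual. All 12 libraries share 1 estimate of the spread, so the counts of calls below are also given without replicate 2 of siPFDN2 before serum. Epithelial markers were present (EPCAM 150.9 to 239.8 CPM, KRT8 673 to 1139), CDX2 (5.57 to 14 CPM) and VIL1 (7.83 to 16.7) lay lower, and CDX1 was at most 0.0212 CPM. Among markers of other cells, the leukocyte marker PTPRC was at most 0.143 CPM, PECAM1 at most 0.4525 and COL1A2 at most 0.0339. COL1A1 (3.97 to 15.7 CPM) and ACTA2 (6.23 to 12.5) were present at the level of CDX2 and VIL1. In bulk RNA, fewer cells with an RNA and less RNA per cell cannot be told apart.

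Levels were compared between members only per length, as exon CPM per kilobase of merged exon, averaged over the 12 libraries. SNHG29 (formerly LRRC75A-AS1), the host of SNORD49A, SNORD49B and SNORD65, was highest at 163.1 ± 34.1 (SD, n = 12). SNHG3 followed at 119.5 ± 14.7, then SNHG16 at 76.6 ± 13.3, SNHG25 at 73.4 ± 21.0 and SNHG6 at 62.1. SNHG19 was sixth at 46.6 ± 22.9, with a range of 27.6 to 96.7, and SNHG8 (45.4) and ZFAS1 (44.2) lay within that range. That place rests on the siPFDN5 libraries: over the 4 siControl libraries SNHG19 was eleventh of the 29, at 28.7 ± 1.27 (n = 4), below SNHG1 (29.9 ± 6.09), GAS5 (35.6 ± 4.10), SNHG32 (35.8), SNHG8 (37.1) and ZFAS1 (41.7). Over the 12 libraries SNHG16 and SNHG25 do not differ beyond their spread, nor do SNHG19, SNHG8 and ZFAS1. At the low end were SNHG31 at 0.691, SNHG14 at 0.345 and SNHG28 at 0.252.

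**Figure D1:**
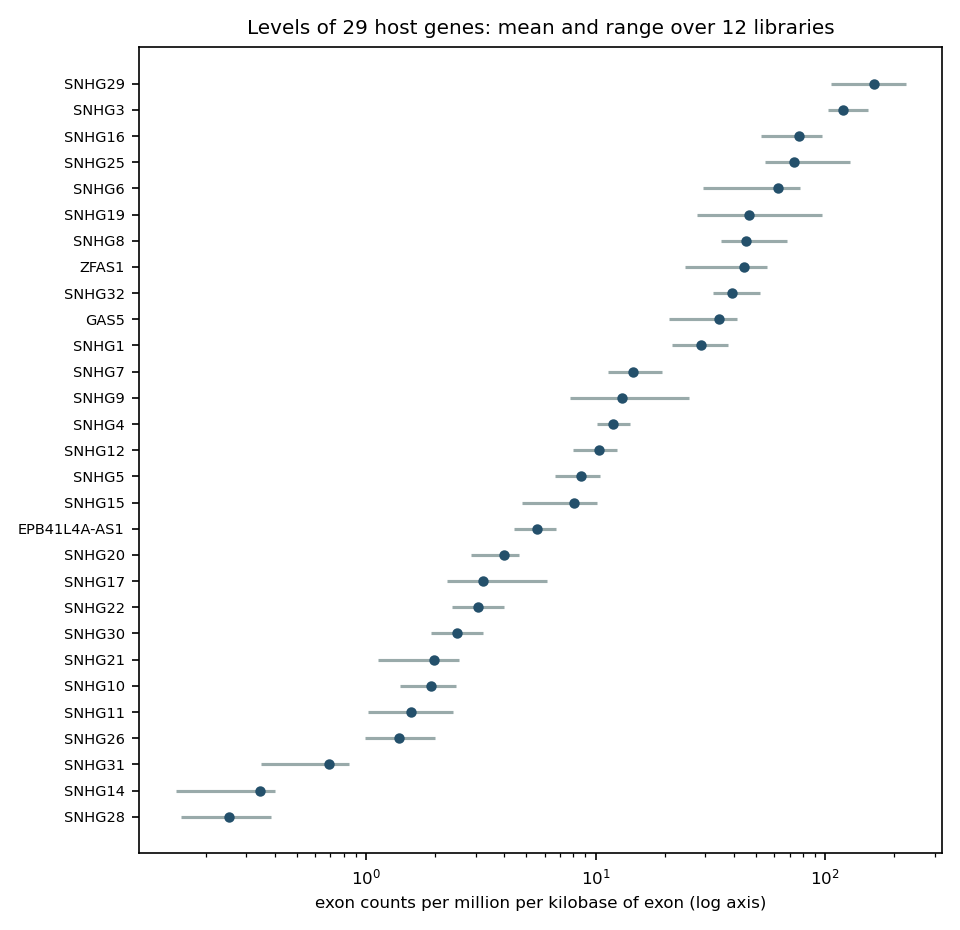
Levels of the 29 tested host genes as exon CPM per kilobase of merged exon, on a log axis; points are means over the 12 libraries and lines run from the lowest to the highest library. SNHG29 has the highest mean (163.1) and SNHG28 the lowest (0.252), and SNHG19 spans 27.6 to 96.7.

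SNHG19, the host of SNORD60 (chr16:2154797-2155358, minus strand, a body of 562 bases with 342 in exons, overlapping no other gene), was higher in both siPFDN5 libraries than in both siControl libraries before serum. It was at 8.65 and 8.44 CPM in siControl, 11.5 and 11.4 in siPFDN2 and 18.8 and 15.7 in siPFDN5 before serum. After serum it was at 8.48 and 9.35 CPM in siControl, 10.9 and 11.1 in siPFDN2, and 24.5 and 29.4 in the libraries labelled siPFDN5. The 4 siPFDN5 libraries were the highest of the 12, the 4 siPFDN2 libraries came next and the 4 siControl libraries were lowest, with no overlap between the siRNAs.

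The comparison of siPFDN5 with siControl before serum did not enter the choice of the genes. There SNHG19 was 2.02-fold higher (log2 fold change 1.01 ± 0.16, SE), with an adjusted p of 0.0884 in edgeR's quasi-likelihood test, which misses the threshold of 0.05. Over exons it was at 9.54 and 9.43 CPM against 22.8 and 18.95, a 2.20-fold difference (1.14 ± 0.15, adjusted p = 0.127 in edgeR). The call depended on how the spread was estimated: the adjusted p was 0.000853 in edgeR without siPFDN2 before serum replicate 2, 0.0133 with the GC trend of each library removed and 1.85e-05 in DESeq2, at log2 fold changes between 1.01 and 1.09. Over all settings in which 1 library was left out, the log2 fold change was 0.88 to 1.13, the lowest without siPFDN5 before serum replicate 1. After serum, as a description, the libraries labelled siPFDN5 were 3.03-fold above siControl (1.60 ± 0.16).

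In siPFDN2 libraries, SNHG19 was 0.42 ± 0.15 (log2) above siControl before serum and 0.30 ± 0.15 above it after serum. Neither difference passed the test (edgeR, all 29 members), although both siPFDN2 libraries lay above both siControl libraries at each time. The serum response of SNHG19 was 0.06 ± 0.15 in siControl, where library-size scaling gave -0.01, and -0.06 ± 0.15 in siPFDN2, where removal of the GC trend gave 0.20.

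**Figure D2:**
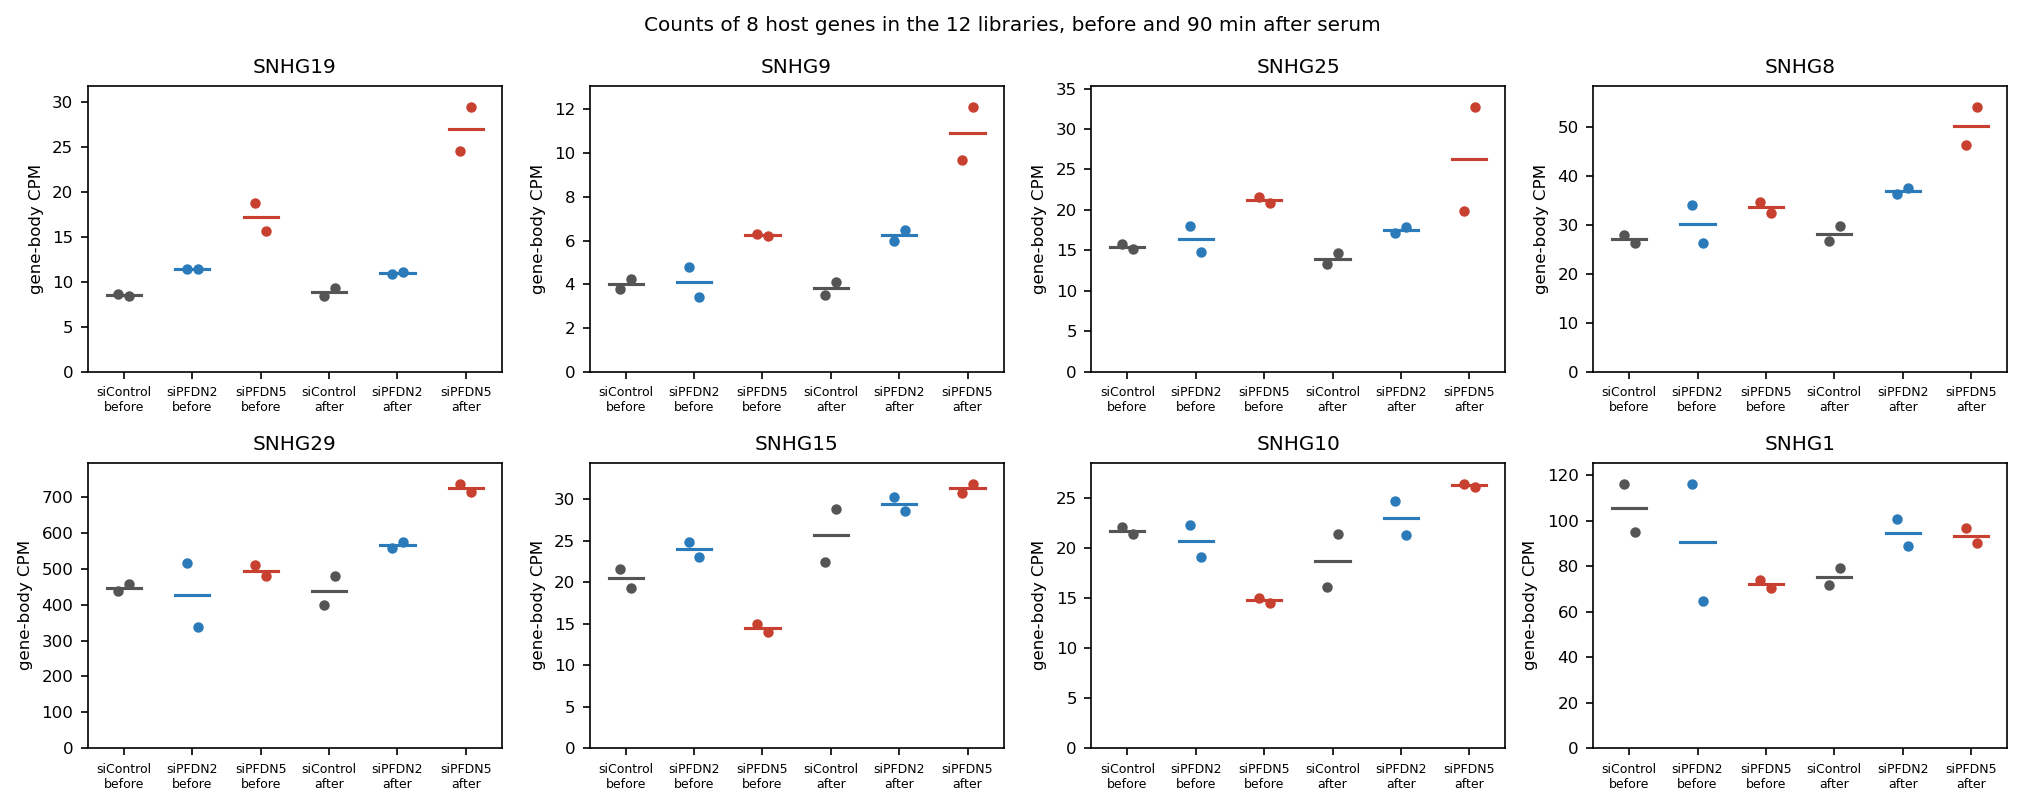
Gene-body CPM of 8 host genes in each group before and after serum; dots are the 2 libraries of a group, lines their means, and grey, blue and red are siControl, siPFDN2 and siPFDN5. SNHG19 is highest in the 4 siPFDN5 libraries (15.7 to 29.4 CPM), whereas SNHG15 and SNHG10 are lowest in siPFDN5 before serum.

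Before serum, members had values on both sides of siControl in siPFDN5, and no member passed edgeR's test over all 12 libraries, where 0.00716% of all 27915 genes were called. At an unadjusted p under 0.05 there were 7 members, and DESeq2 called 1, SNHG19, with 1.17% of all genes called. Counts of members at an unadjusted p over gene bodies or exons, here and below, have no share of all genes beside them. Nothing is read from them. The median log2 fold change was -0.06 over the 29 members and 0.01 over all genes. Both siPFDN5 libraries lay above both siControl libraries for 8 of 29 members, with 32.9% of all genes doing so, and below them for 13, with 30.5% of all genes doing so.

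SNHG9 (chr16:1964959-1965509, plus strand, a body of 551 bases that is all exon), the host of SNORA78, was at 3.79 and 4.23 CPM in siControl and 6.31 and 6.22 in siPFDN5 before serum, a log2 fold change of 0.64 ± 0.20. SNHG25, the host of SNORD104 and SNORA50C (chr17:64145970-64146476, plus strand), was at 15.8 and 15.1 against 21.6 and 20.9 (0.46 ± 0.21). SNHG8, the host of SNORA24 (chr4:118278709-118279823, plus strand), was at 28.0 and 26.4 against 34.6 and 32.4 (0.30 ± 0.16). SNHG31, a longer RNA that overlaps ABCA12, was at 2.89 and 3.52 against 4.97 and 4.49 (0.56 ± 0.30), and over its exons at 1.52 and 1.51 against 1.51 and 1.59 (0.03 ± 0.29). Over gene bodies the 2 groups did not overlap in any of these 4 genes.

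SNHG15, the host of SNORA9 (chr7:44983023-44986961, minus strand), was lower, at 14.9 and 13.99 CPM in siPFDN5 against 21.6 and 19.3 in siControl (-0.50 ± 0.16). SNHG1 (chr11:62851988-62855914, minus strand), which carries 7 snoRNA entries, SNORD25 to SNORD28 and SNORD30 among them, was at 74.0 and 70.4 against 115.9 and 95.0 (-0.55 ± 0.23). SNHG11, the host of SNORA71E and SNORA60, was at 2.72 and 2.59 against 4.11 and 3.56 (-0.53 ± 0.22). In each of them both siPFDN5 libraries lay below both siControl libraries.

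SNHG10, the host of SCARNA13 (chr14:95532297-95534872, minus strand), was at 14.97 and 14.5 CPM in siPFDN5 against 22.1 and 21.4 in siControl (-0.56 ± 0.17). Over its exons the difference was only -0.08 ± 0.18, and the 2 groups overlapped. The body of SNHG10 overlaps GLRX5, the counting did not use strand, and 84.1% to 88.3% of its gene-body counts (group means) lay outside its exons, and SCARNA13 also lies wholly outside the exons. The gene-body value of SNHG10 therefore cannot be assigned to the host RNA.

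Without siPFDN2 before serum replicate 2, edgeR called 6 members in siPFDN5 before serum, with 6.96% of all 29034 genes called. SNHG19 and SNHG9 (0.64, adjusted p = 0.0180) rose, and SNHG1 (-0.55, adjusted p = 0.0107), SNHG10 (adjusted p = 0.0189), SNHG15 (-0.51, adjusted p = 0.0208) and SNHG11 (adjusted p = 0.0470) fell. Replicate 1 of that group left out instead also gave 6, with 6.74% of all genes called. Without siControl after serum replicate 1 or 2, SNHG19 alone was called, with 0.652% and 0.487% of all genes called. With the GC trend removed, SNHG19 alone was called, with 0.681% of all genes called. These 2 siPFDN5 libraries also had the highest shares of counts outside exons of all 12, 22.8% and 25.9%, against 14.8% to 20.9% in the others, and the part of this in the gene-body values was not tested.

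After serum, the libraries labelled siPFDN5 had higher counts than siControl for most members. This is the contrast in which the set was proposed, so the values describe these libraries and carry no test. The log2 fold change was above 0 for 22 of 29 members, with a median of 0.25 against -0.04 over all genes. With scaling by library size alone, which moved the median of all genes to -0.20, 18 of 29 were above 0 and the median was 0.10. Both libraries lay above both siControl libraries for 20 of 29 members (30.6% of all genes) and below them for 2 (32.7% of all genes).

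SNHG9 was at 3.53 and 4.11 CPM in siControl after serum and 9.70 and 12.1 in the libraries labelled siPFDN5, a 2.85-fold difference (1.51 ± 0.20). SNHG25 was at 13.3 and 14.6 against 19.9 and 32.7 (0.91 ± 0.21), and the 2 libraries labelled siPFDN5 differed widely: without replicate 2 the log2 fold change was 0.52, and without replicate 1 it was 1.25. SNHG8 was at 26.7 and 29.7 against 46.2 and 54.0, a 1.78-fold difference (0.83 ± 0.16). Together with SNHG19 these had the 4 highest log2 fold changes among the 29.

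SNHG29 (chr17:16438822-16478678, plus strand) was at 397.7 and 480.1 CPM against 736.4 and 712.8 (0.72 ± 0.19), the largest difference among the abundant members. SNHG32 (formerly C6orf48) was at 48.4 and 57.7 against 76.3 and 82.8 (0.58 ± 0.14). SNHG16, which carries SNORD1A, SNORD1B and SNORD1C, was at 248.3 and 326.5 against 448.9 and 406.2 (0.57 ± 0.20). In none of the 3 genes did the groups overlap.

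Other members moved less or lay lower. SNHG3, the host of SNORA73A and SNORA73B, was at 500.0 and 580.0 CPM against 659.0 and 715.7 (0.35 ± 0.14), and its body overlaps RCC1. SNHG22 was at 38.6 and 39.1 against 30.8 and 29.9 (-0.36 ± 0.14). SNHG28 (chr1:159834474-159855347, minus strand) was at 0.799 and 0.735 against 0.407 and 0.421 (-0.88 ± 0.28), and it overlaps SLAMF8 and VSIG8; summed transcript estimates put it at 0.32 instead.

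In this contrast edgeR called 0.00358% of all genes over gene bodies and 0.00402% over exons, and none of the 28 members other than SNHG19, of which 10 and 8 had an unadjusted p under 0.05. Leaving SNHG19 aside, DESeq2 called 5 members with 6.85% of all genes, edgeR with the GC trend removed called 6 with 13.2%, and edgeR without siPFDN2 before serum replicate 2 called 13 with 23.9%, of which 11 were higher and SNHG22 and SNHG28 lower. Without siControl after serum replicate 2 edgeR called 6 of them, with 9.15% of all genes called. Since the contrast led to the choice of the genes, nothing is read from these counts.

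**Figure D3:**
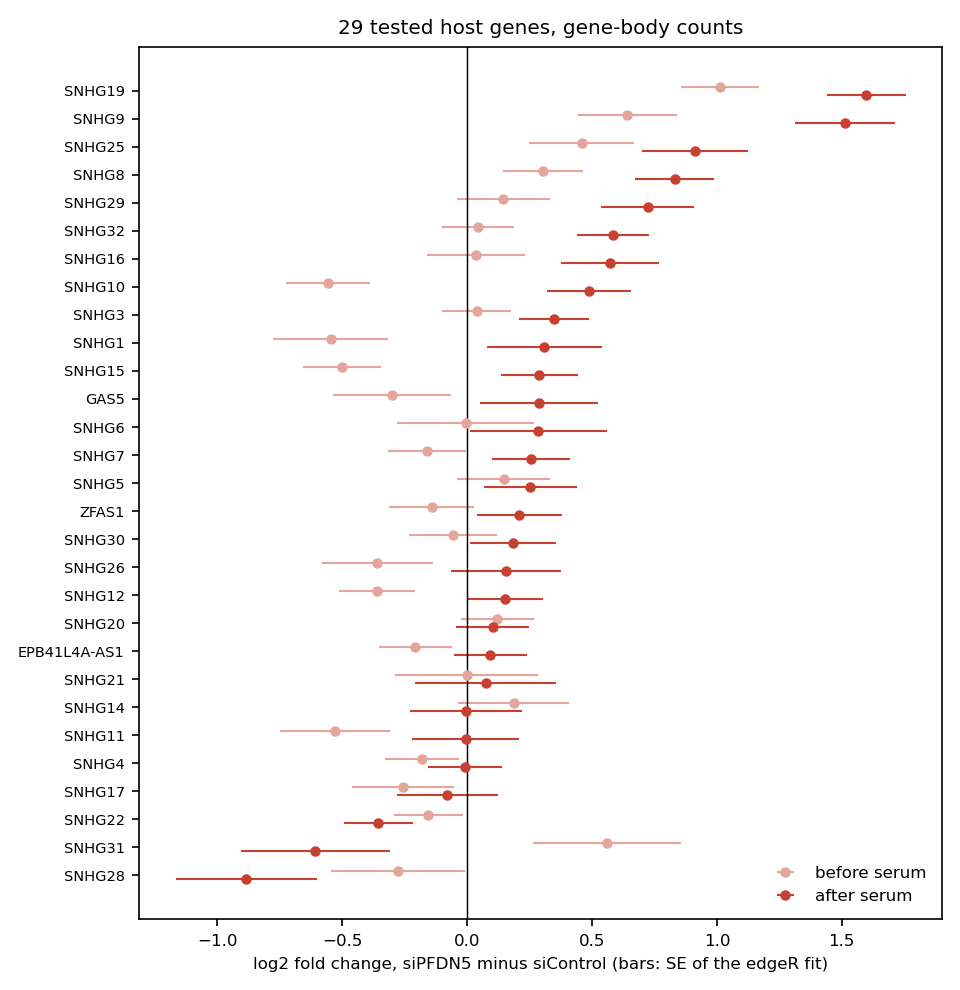
Log2 fold change of siPFDN5 minus siControl for the 29 tested host genes, before serum (light) and after serum (dark), ordered by the value after serum; bars are the SE of the edgeR fit. SNHG19, SNHG9, SNHG25 and SNHG8 are on the right at both times, while SNHG10, SNHG1 and SNHG15 are left of 0 before serum and right of 0 after it; both series use siControl libraries of the same time.

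In siPFDN2 before serum no member passed edgeR's test, with 0% of all genes called; 4 had an unadjusted p under 0.05, and DESeq2 called 0 members and 0.0967% of all genes. The median of the members was 0.03 and that of all genes -0.01. Replicate 2 stood apart from replicate 1 in many members: GAS5 was at 116.1 and 62.2 CPM against 123.9 and 105.9 in siControl, and SNHG6 at 79.3 and 35.5 against 65.1 and 62.5. Their log2 fold changes of -0.37 ± 0.24 and -0.15 ± 0.27 became 0.01 and 0.31 without that library.

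In siPFDN2 after serum most members had a log2 fold change above 0 against siControl, and none passed edgeR's test, with 0% of all genes called. At an unadjusted p under 0.05 there were 4, and DESeq2 called 0 members and 0.00716% of all genes. The log2 fold change was above 0 in 26 of 29 members, with a median of 0.20 against -0.05 over all genes, and with library-size scaling in 21 of 29, with a median of 0.08 against -0.17. Both siPFDN2 libraries lay above both siControl libraries for 17 of 29 members, with 22.5% of all genes doing so. They lay below both for 2, with 25.5% of all genes doing so. SNHG9 had the largest difference, at 5.996 and 6.48 CPM against 3.53 and 4.11 (0.71 ± 0.20, adjusted p = 0.772 in edgeR). SNHG16 was at 395.5 and 405.1 CPM (0.48 ± 0.20 above siControl), and SNHG3 at 757.3 and 684.8 (0.42 ± 0.14). Without siPFDN2 before serum replicate 2, SNHG9 was called (adjusted p = 0.0372 in edgeR), with 0.568% of all genes called. The comparison with siPFDN5 after serum uses the same 2 siControl libraries, so the higher values of the members in both are not independent of each other.

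In siControl cells no member passed edgeR's test of the serum response (after against before serum), with 2.87% of all genes called; 1 had an unadjusted p under 0.05, and DESeq2 called 0 members and 4.31% of all genes. SNHG20, the host of SCARNA16 (chr17:77086716-77094990, plus strand), went from 8.58 and 9.85 to 11.9 and 12.9 CPM (0.42 ± 0.15), and SNHG1 from 115.9 and 95.0 to 71.8 and 79.0 (-0.48 ± 0.23). Without siPFDN2 before serum replicate 2 both were called, SNHG20 with an adjusted p of 0.0168 and SNHG1 with 0.00683 in edgeR, with 9.95% of all genes called.

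In siPFDN2 cells no member passed edgeR's test of the serum response, with 3.26% of all genes called; 7 had an unadjusted p under 0.05, and DESeq2 called SNHG9, with 11.2% of all genes called. SNHG9 went from 4.78 and 3.41 to 5.996 and 6.48 CPM (0.61). The median of the members was 0.15, but it was -0.05 with library-size scaling.

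In siPFDN5 cells, with SNHG19 left aside because its level after serum led to the choice of the set, edgeR called 5 of 28 members, 4 higher and 1 lower after serum, with 12.2% of all genes called. PFDN5 RNA was at 41.0 and 44.2 CPM before serum and 67.5 and 68.6 after it, so serum cannot be told apart from that difference here. The shares of all counts outside exons also differed, at 22.8% and 25.9% before serum and 17.2% and 14.8% after it. SNHG15 rose most, from 14.9 and 13.99 to 30.8 and 31.9 CPM, a 2.17-fold rise (1.12 ± 0.16, adjusted p = 0.00262). SNHG10 rose from 14.97 and 14.5 to 26.4 and 26.1 CPM (0.83 ± 0.17, adjusted p = 0.0159), with the limit given above. SNHG9 rose from 6.31 and 6.22 to 9.70 and 12.1 CPM (0.80 ± 0.20, adjusted p = 0.0285).

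SNHG8 rose by 0.58 ± 0.16 (adjusted p = 0.0408 in edgeR). As a description, SNHG19 was 0.65 ± 0.15 higher after serum. SNHG28 fell from 0.956 and 0.740 to 0.407 and 0.421 CPM, a log2 fold change of -1.03 ± 0.29 (adjusted p = 0.0426). The groups before and after serum did not overlap in these 6 genes, SNHG19 included. Over exons only SNHG15 was called (1.00 ± 0.14, adjusted p = 0.00378), with 4.22% of all genes called. The following counts also leave SNHG19 aside. With the GC trend removed 10 members were called, 9 of them higher, with 28.9% of all genes called, and without siPFDN2 before serum replicate 2 there were 18, 17 of them higher, with 36.3%. Without siPFDN2 before serum replicate 1 there were also 18, with 36% of all genes called. SNHG15 was called whichever library was left out, and it was the only one called when any 1 of the 4 siPFDN5 libraries was left out. Without siPFDN2 after serum replicate 1 or 2, 2 members were called, SNHG10 and SNHG15, with 5.89% and 5.7% of all genes called.

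Averaged over the 3 siRNAs, and again leaving SNHG19 aside, edgeR called 6 of 28 members for serum, 5 higher and 1 lower, with 14.9% of all genes called; DESeq2 called 8, with 18.1% of all genes called. SNHG15 was at 13.99 to 24.9 CPM in the 6 libraries before serum and at 22.4 to 31.9 in the 6 after it, a 1.49-fold rise (0.58 ± 0.09, adjusted p = 0.00167). SNHG9 (0.45 ± 0.11, adjusted p = 0.0252) and SNHG8 (0.31 ± 0.09, adjusted p = 0.0461) also rose. EPB41L4A-AS1, the host of SNORA13, went from 12.2 to 16.9 CPM before serum to 15.1 to 19.4 after it (0.31 ± 0.09, adjusted p = 0.0335). SNHG20 rose as well (0.31 ± 0.08, adjusted p = 0.0344), and SNHG28 fell (-0.73 ± 0.16, adjusted p = 0.0120).

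The 6 libraries before and the 6 after serum overlapped in each of these genes, and SNHG28 was at 0.740 to 1.27 CPM before and 0.407 to 0.799 after. SNHG15 and SNHG28 were called whichever of the 12 libraries was left out; the others were not. The count was 21 without siPFDN2 before serum replicate 1, with 47.3% of all genes called, and 6 without siControl after serum replicate 1, with 14.9%; it was 2 or 3 when any other library but siPFDN2 before serum replicate 2 was left out, with 6.85% to 9.74%. Without siPFDN2 before serum replicate 2, 13 members were called, 11 higher and SNHG28 and SNHG4 lower, with 27.5% of all genes called. With the GC trend removed there were 10, 8 of them higher, with 28.4%. Over exons 5 were called, with 11% of all genes called: SNHG15 (0.55), SNHG9 (0.41), SNHG10 (0.36) and SNHG20 (0.29) rose, and SNHG28 (-0.57) fell.

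Whether the serum response differed between siPFDN5 and siControl was tested as a difference of the 2 responses, and no member passed edgeR's test over all 12 libraries, where 0% of all genes were called. With SNHG19 left aside, 9 members had an unadjusted p under 0.05, and DESeq2 called SNHG10 and SNHG15, with 6.2% of all genes called. The value farthest from 0 was that of SNHG31 (-1.17 ± 0.42, adjusted p = 0.149), which was at 5.70 and 2.85 CPM in the 2 siControl libraries after serum, and over exons its difference was -0.35. The highest values were those of SNHG10 (1.05 ± 0.24, adjusted p = 0.0960), SNHG9 (0.87 ± 0.28), SNHG1 (0.86 ± 0.32) and SNHG15 (0.79 ± 0.22, adjusted p = 0.1004). The median difference over members was 0.42 against -0.03 over all genes, and 0.35 with library-size scaling. The siPFDN5 response carries the limit on PFDN5 RNA given above. With the GC trend removed SNHG1, SNHG10 and SNHG15 were called (7.03% of all genes), and without siPFDN2 before serum replicate 2 there were 11 besides SNHG19, all with a more positive response in siPFDN5 (21.8% of all genes). Without siControl after serum replicate 2 there were 3, SNHG10 and SNHG15 with a more positive response and SNHG31 with a more negative one (10.9% of all genes). For siPFDN2 no member passed, with 0% of all genes called; 1 had an unadjusted p under 0.05, and DESeq2 called 0 members and 0.00716% of all genes.

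**Figure D4:**
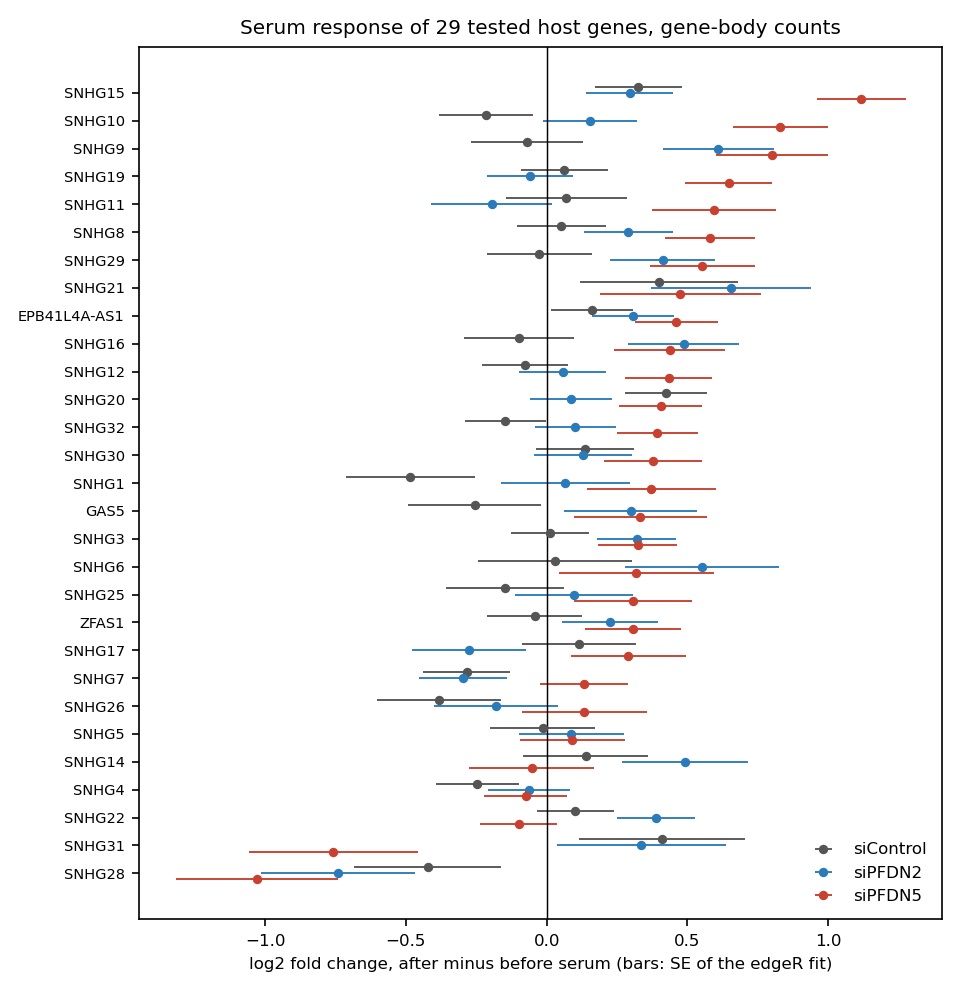
Serum response (log2 fold change, after minus before) of the 29 tested host genes in siControl (grey), siPFDN2 (blue) and siPFDN5 (red) cells, ordered by the response in siPFDN5; bars are the SE of the edgeR fit. SNHG15 is at 1.12 in siPFDN5 and 0.33 in siControl, and SNHG28 is below 0 in all 3.

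The 8 members with the most counts were followed in every library. SNHG3 had the highest mean over the 12 libraries (602 CPM), and before serum it was at 535.0 and 535.4 CPM in siControl, 601.7 and 553.8 in siPFDN2 and 516.6 and 582.3 in siPFDN5. SNHG29 was at 436.6 and 457.2, 514.4 and 336.9, and 509.4 and 479.0 in the same order before serum, and at 557.8 and 574.6 in siPFDN2 after it. SNHG16 was at 296.6 and 318.8, 343.6 and 228.0, and 327.1 and 304.6 before serum. In SNHG29 and SNHG16 the 2 siPFDN2 libraries lay on either side of both siControl libraries.

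GAS5, which is known to accumulate when translation stops because its RNA is otherwise removed by nonsense-mediated decay, was at 95.2 and 91.6 CPM in siPFDN5 before serum. After serum it was at 90.9 and 101.8 in siControl, 117.4 and 101.9 in siPFDN2 and 119.1 and 116.1 in siPFDN5, the last 0.29 ± 0.24 above siControl. Before serum both siPFDN5 libraries lay below both siControl libraries (123.9 and 105.9 CPM), and siPFDN2 overlapped siControl. After serum siPFDN2 and the libraries labelled siPFDN5 lay above siControl, for siPFDN2 narrowly (101.9 against 101.8). SNHG1 was at 116.2 and 64.8 CPM in the siPFDN2 libraries before serum, and after serum at 100.6 and 88.8 in siPFDN2 and 96.8 and 90.0 in siPFDN5. SNHG6 was at 64.4 and 62.7 CPM in the siPFDN5 libraries before serum, and after serum at 61.2 and 68.9 in siControl, 83.9 and 84.3 in siPFDN2 and 77.8 and 80.7 in siPFDN5. In both genes the 2 siControl libraries after serum lay below the siPFDN2 libraries and the libraries labelled siPFDN5 of that time, without overlap.

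ZFAS1, an antisense gene that overlaps ZNFX1 and 4 other genes and carries 3 snoRNA entries, was at 114.1 and 107.4 CPM in siControl, 124.1 and 86.5 in siPFDN2 and 99.7 and 101.2 in siPFDN5 before serum. After serum it was at 103.7 and 111.3, 131.0 and 115.0, and 121.4 and 127.0 in the same order. SNHG14, a long RNA across the imprinted region of chromosome 15 that overlaps 16 other genes, SNRPN and UBE3A among them, was at 111.7 and 124.4, 125.6 and 70.0, and 139.2 and 129.6 CPM before serum. After serum it was at 138.2 and 121.7, 136.6 and 138.1, and 135.6 and 123.5. Outside siPFDN2 before serum, ZFAS1 ran from 99.7 to 131.0 CPM and SNHG14 from 111.7 to 139.2. The share of SNHG14 counts outside its exons was 91.3% in siControl before serum, and the counting does not separate SNHG14 from the other genes there.

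Counts outside a host's exons can come from unspliced RNA, excised introns, snoRNA precursors or overlapping genes. The share of SNHG19 counts outside its exons was 10.3% and 9.10% in siControl, 9.49% and 11.1% in siPFDN2 and 4.92% and 4.24% in siPFDN5 before serum. After serum it was 9.42% and 8.98% in siControl, 8.38% and 9.59% in siPFDN2, and 4.29% and 3.496% in the libraries labelled siPFDN5. The 4 siPFDN5 libraries were the 4 lowest of the 12, with no overlap. These shares are not relative to other genes. The change of counts outside exons relative to those in exons was also taken over all genes, with 1 scaling factor per library. Its median in siPFDN5 against siControl was 0.22 (log2) before serum and -0.74 after it. Relative to the typical gene, the change of SNHG19 was -1.41 ± 0.26 before serum and, as a description, -0.60 ± 0.25 after it.

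The counts of SNHG19 outside exons came to 0.894 and 0.768 CPM in siControl, 1.09 and 1.26 in siPFDN2 and 0.924 and 0.666 in siPFDN5 before serum, and to 0.799 and 0.839, 0.911 and 1.06, and 1.05 and 1.03 after it. Before serum the siPFDN2 libraries were highest, and siPFDN5 overlapped siControl. After serum the siPFDN2 libraries and the libraries labelled siPFDN5 lay above siControl, without overlap. These values rest on 45 to 142 counts per library. Before serum, the change of SNHG19 counts outside exons relative to those in exons was -1.41 ± 0.26 (log2) in siPFDN5 against siControl, with an unadjusted p of 7.194e-05 and an adjusted p of 0.195 over the 17390 genes tested in edgeR. The adjusted p was 0.0232 and 0.0290 when either siControl library after serum was left out.

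Over the 26 members with enough counts for this test, none was called in edgeR in the 2 knockdown comparisons before serum or for siPFDN2 after it, with 0%, 0% and 0% of all genes called. At an unadjusted p under 0.05 there were 1 (siPFDN2 before serum), 7 (siPFDN5 before serum) and 2 (siPFDN2 after it). Over all 17390 genes there were 1020, 2456 and 703 in the same order. For siPFDN5 after serum 1 member was called, EPB41L4A-AS1, with 3.97% of all genes called. Its share outside exons was 2.69% and 3.85% in siControl and 5.64% and 5.77% in the libraries labelled siPFDN5, a relative change of 1.53 ± 0.31, and the gene overlaps EPB41L4A. The share in siControl before serum was 4.09% and 3.97%. The shares after serum rest on 34 and 89 counts outside exons in siControl and 69 and 85 in the libraries labelled siPFDN5. EPB41L4A-AS1 was called in 3 of the 12 fits with 1 library left out, where the change ran from 1.06 without siControl after serum replicate 1 (adjusted p = 0.237 in edgeR) to 2.16 without replicate 2, and it was 0.83 with 1 scaling factor per library.

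For serum averaged over the siRNAs, 5 members were called in edgeR, with 21.7% of all genes called. SNHG29, whose body overlaps LRRC75A, fell most. Given as siControl, siPFDN2 and siPFDN5 in turn, it went from 3.62%, 3.51%, 3.03%, 5.95%, 3.36% and 3.86% outside exons before serum to 3.46%, 2.61%, 2.10%, 1.70%, 1.38% and 1.49% after it (-0.64 ± 0.14, adjusted p = 0.00441), and all but siControl replicate 1 were lower after serum than any library before it. ZFAS1 went from 24.0% to 49.4% before serum to 15.5% to 33.5% after it (-0.43 ± 0.13, adjusted p = 0.0245). SNHG32, which overlaps no other gene, went from 5.38% to 12.4% to 2.94% to 6.75% (-0.42 ± 0.13, adjusted p = 0.0278). When the test was run on the 4528 genes that overlap no other gene, SNHG32 was not called (-0.32, adjusted p = 0.0584 in edgeR).

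SNHG6, which overlaps MCMDC2, went from 8.46% to 17.3% before serum to 5.06% to 7.75% after it (-0.46 ± 0.14, adjusted p = 0.0324 in edgeR), without overlap. SNHG21, which overlaps FSD2, was at 40.4% to 55.8% before and 43.6% to 55.7% after serum; its change relative to the typical gene was 0.48 ± 0.16 (adjusted p = 0.0424), and it was 0.17 when counts in and outside exons were scaled with 1 factor per library. That scaling put the median of all genes at -0.28 for serum and at -0.74 for siPFDN5 after serum, so the values here are relative to the typical gene. SNHG29 was called whichever library was left out, and the other 4 were not.

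**Figure D5:**
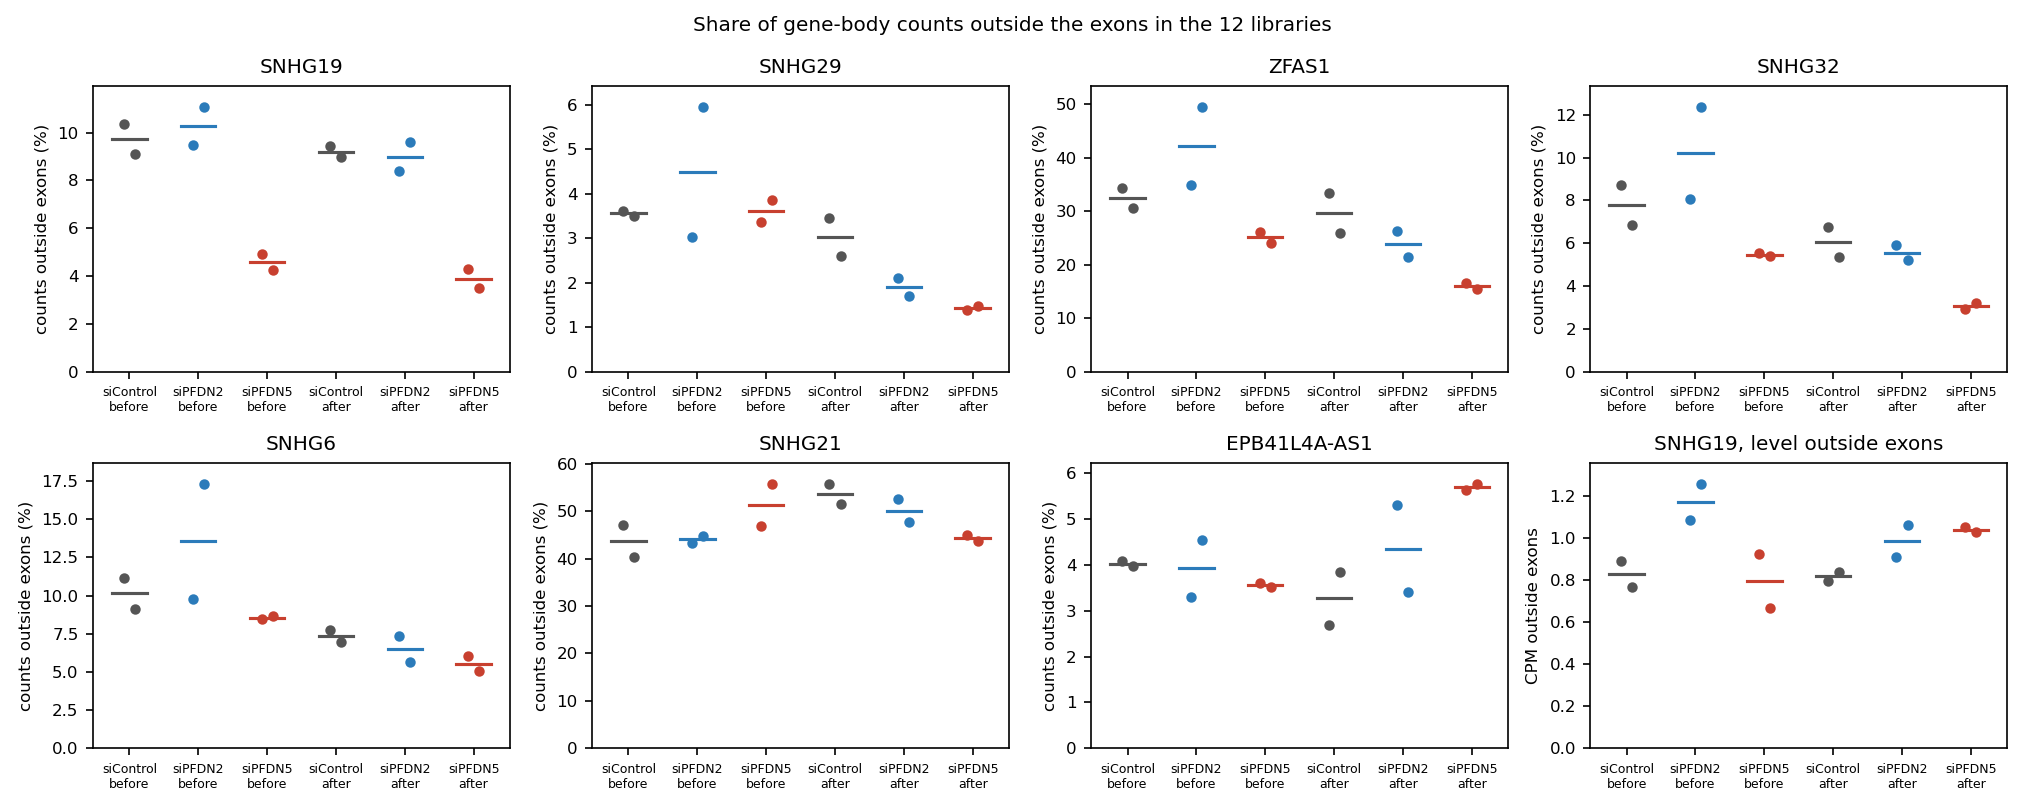
Share of gene-body counts outside exons, in percent, for SNHG19 and the 6 host genes called in the test of that share, and the CPM of SNHG19 outside exons (last panel); dots are libraries and lines group means. The SNHG19 share is 3.496% to 4.92% in the 4 siPFDN5 libraries and 8.38% to 11.1% in the other 8, while its CPM outside exons spans 0.666 to 1.26 with overlap between the siRNAs. Relative to the typical gene, its log2 change in siPFDN5 against siControl is -1.41 before serum and -0.60 after it.

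The 4 hosts with the highest values in the libraries labelled siPFDN5 after serum had short exons, a feature looked at after the values were seen. Before serum SNHG31, with 2108 bases of exon, lay above SNHG25 and SNHG8 of that group. The 4 members with under 1000 bases of exon, SNHG8, SNHG9, SNHG19 and SNHG25, had a median log2 fold change of 0.55 (0.30 to 1.01) in siPFDN5 before serum and 1.21 (0.83 to 1.60) after it, and of 0.36 in siPFDN2 after serum. The other 25 had medians of -0.15, 0.18 and 0.19, and ran from -0.56 to 0.56 in siPFDN5 before serum. Over all genes, the 7376 with under 1000 bases of exon had medians of 0.05, -0.11 and -0.07 in these comparisons. As a description across 29 genes, which share libraries and are not replicates, the log2 exon length and the change in siPFDN5 before serum had a Pearson r of -0.48 and a Spearman rho of -0.36, with -0.03 and 0.00 over all genes.

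The 6 tested members with a pyrimidine run at the start, shown above, did not stand apart as a group. Their median was -0.05 in siPFDN5 before serum, 0.23 in siPFDN2 after serum and 0.23 in siPFDN5 after serum, against -0.15, 0.15 and 0.16 in the 19 with a RefSeq start and no run. SNHG19 was the highest of the 6 in siPFDN5 at both times. SNHG9 and SNHG25 had no start sequence in the RefSeq table used here.

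Genes that act on snoRNAs were followed as lists. The core proteins of box C/D particles (FBL, NOP56, NOP58 and SNU13) had a median of -0.24 in siPFDN5 before serum and 0.31 after it, and those of box H/ACA particles (DKC1, NHP2, NOP10 and GAR1) -0.04 and 0.34, with none of either called in edgeR over all 12 libraries. After serum DESeq2 called 1 and 2 of them higher, and edgeR with the GC trend removed called SNU13 (0.52) and NOP10 (0.87), with 6.85% and 13.2% of all genes called. For serum averaged over the siRNAs 2 of 4 box C/D genes rose (NOP58 0.45 and SNU13 0.30), as did 2 of 4 box H/ACA genes (GAR1 0.42 and DKC1 0.30), with 14.9% of all genes called as above; with library-size scaling none of these 8 was called. The 12 assembly and transport genes, such as NUFIP1 and SHQ1, had no call in edgeR over all 12 libraries, with medians of -0.05, 0.12 and 0.13 in the same 3 comparisons, the last 2 below 0 with library-size scaling. With the GC trend removed, edgeR called RUVBL2 (0.48) and PIH1D1 (0.43) in siPFDN5 after serum and RUVBL2 (0.19) and PHAX (0.18) for averaged serum, where DESeq2 called 1.

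Of 10 nonsense-mediated decay genes, none was called in siPFDN5 at either time in edgeR or DESeq2 (medians -0.06 and -0.15), and 4 (40%) fell on average after serum, with 14.9% of all genes called in either direction, among them UPF1 (-0.45), the central helicase of that pathway, and SMG9 (-0.40). Of 271 protein-coding genes that also carry snoRNAs, 260 were tested: their median was 0.00 in siPFDN5 before serum and 0.09 after it (-0.07 with library-size scaling), and 24 rose and 11 fell on average after serum, together 35 of 260, a share close to the 14.9% of all genes called. Of 85 tested cytosolic ribosomal protein genes none was called in siPFDN5 at either time in edgeR, with medians of 0.00 and 0.63, and DESeq2 called 49 higher after serum, with 6.85% of all genes called. On average over the siRNAs 20 (23.5%) rose after serum, with RPL26L1 (0.54), RPS27A (0.45) and RPL9 (0.44) highest; with library-size scaling 1 did. The median of the 29 host genes in siPFDN5 after serum, 0.25, lay between that of the protein-coding hosts and that of the ribosomal protein genes, as a description of these libraries.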

How the data were processed

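The authors deposited featureCounts tables of fragment counts over gene bodies and over exons (Ensembl GRCh38 release 87; both mates mapped, overlapping genes each given the fragment, strand not used, per the file headers), and estimated counts per transcript, deposited under a TPM name. The submitters' processing notes name HISAT2 0.12.2, featureCounts 1.5.2, kallisto 0.43 and GRCh38.p7. Another 6 columns of each count file matched no sample and were not used. Of 173259 transcripts 159196 matched a gene; their estimated counts were summed and rounded as an alternative.

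Genes passing filterByExpr (27915 over bodies, 24889 over exons) were scaled by TMM and fitted as 6 group means in edgeR 4.0.16 (R 4.3.3), with the quasi-likelihood test, two-sided, with 0.05 as the limit for the Benjamini-Hochberg adjusted p over all genes. Log2 CPM, used for the GC trend and the differences between replicates, had a prior count of 2. Log2 fold changes were those of the edgeR fit with its default prior count, unless another tool is named. Counts outside exons were the gene-body minus the exon counts; they were tested against exon counts within each library (17390 genes, separate TMM factors). DESeq2 1.42.0 was an alternative. The GC trend was a lowess fit (span 0.3, 3 iterations). On simulated counts for siPFDN5 after serum, 72% of 2-fold and 100% of 4-fold changes were recovered over gene bodies (27191 genes), 76% and 100% over exons (24231), and 14.1% and 79.4% in the share outside exons (16981). Apart from these changes, all simulated libraries had the same mean per gene, without the GC trend of siPFDN2 before serum replicate 2. The recovered shares therefore do not give the power in the real libraries, where edgeR called 0.00358% of all genes over gene bodies in that comparison. Names came from current symbols, positions from GENCODE 29, where 28 genes fit the naming pattern, 27 of them shared.

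Genes named with the value in every library were SNHG19, the 8 members of highest mean CPM, up to 3 called members per direction and comparison, and members called in the share test. SNHG25, SNHG8, SNHG32, SNHG11, SNHG22 and members of uncalled comparisons were named after their values were seen. The members and lists were chosen with earlier results of these data known.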

Additional observations from a re-analysis of the deposited data

Results flagged for a closer look

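In 5 members both siPFDN5 libraries after serum lay on one side of both before it, and both siControl libraries after serum lay on the other side of theirs. The difference of the 2 serum responses (log2, siPFDN5 minus siControl; edgeR) was 1.05 for SNHG10 (adjusted p = 0.0960), 0.86 for SNHG1 (adjusted p = 0.167), 0.59 for GAS5 (adjusted p = 0.348), 0.52 for SNHG26 (adjusted p = 0.380) and -0.20 for SNHG22 (adjusted p = 0.599). None passed the test over all genes. The share of all genes with such opposite movement was 12.8% (3584 of 27915). For siPFDN2 against siControl there was none among the members and 4.14% of all genes (1157). Over gene bodies, SNHG22 rose in siControl and fell in siPFDN5, while SNHG10, SNHG1, GAS5 and SNHG26 fell in siControl and rose in siPFDN5. Both siControl libraries after serum entered each of these values. In siPFDN5 the serum response cannot be told apart from the difference in PFDN5 RNA between the 2 times, given above. The gene-body counts of SNHG10 lie mostly outside its exons, where its body also holds SCARNA13 and overlaps GLRX5, and these sources were not told apart. Over exons the difference for SNHG10 was 0.46 (adjusted p = 0.482 in edgeR). Its exon CPM in siControl was 3.55 and 2.74 before serum and 3.62 and 3.65 after it, so it did not fall there. SNHG22 and SNHG26 overlapped between the 2 times over exons in siControl, and SNHG1 and GAS5 moved as over gene bodies. Before serum in siControl, 81.4% of SNHG22 and 54.5% of SNHG26 gene-body counts lay outside exons, and SNHG22 overlaps MYO5B.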

How the results depend on the processing

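Of 1083 values for the 52 named changes under other settings, 822 kept their direction and their side of the threshold, 145 lost the call, 109 gained one and 7 reversed, and 47 of the 52 never reversed. Reversed were GAS5 and SNHG6 in siPFDN2 before serum (0.015 and 0.313 without siPFDN2 before serum replicate 2; lowest -0.897 and -0.856, without replicate 1), SNHG28 in siPFDN5 after serum with summed transcript estimates (0.32), SNHG19 for serum in siControl with library-size scaling (-0.0096) and without siControl after serum replicate 2 (-0.076; highest 0.132, without replicate 1), and SNHG19 for serum in siPFDN2 with the GC trend removed (0.20, and 0.20 with the replicate block too); the cause was not tested.

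Counts of members called over gene bodies changed as follows, SNHG19 included, with the share of all genes called as a percentage for most of them. A count without such a share, also in the ranges further below, is not read as a result about the members. For siPFDN5 before serum (0) they were 1 without a filter, 1 with the GC trend removed (0.681%), 1 with that and the replicate block and 1 in DESeq2 (1.17%). With only the libraries compared there were 12, for which no share of all genes is given and from which nothing is read. Over exons there was 1 with the GC trend removed. For siPFDN5 after serum (1) they were 0 by library size (0%), 0 with transcript sums (0%) and 7 without a filter (5.42%). The GC trend removed gave 7 (13.2%), that with the replicate block 5 (8.92%), only the libraries compared 5 (7.81%) and DESeq2 6 (6.85%). Over exons they were 7 with the GC trend removed and 0 with the replicate block. Only 3 members other than SNHG19 were tested with transcript sums, so counts under that setting cannot be set against the others. For serum in siControl (0) the GC trend removed gave 1 over bodies and 1 over exons, and in siPFDN2 (0) DESeq2 gave 1 (11.2%). For serum in siPFDN5 (6) they were 1 over exons (4.22%), 1 with transcript sums (4.37%) and 3 by library size (11.6%). The GC trend removed gave 11 (28.9%) and 9 over exons, and only the libraries compared gave 22 (54.5%). For averaged serum (6) they were 3 with upper-quartile scaling (15.6%) and 1 with transcript sums (9.33%). The GC trend removed gave 11 (28.4%) and 8 over exons, where the replicate block gave 3. For the difference of siPFDN5 and siControl responses (0) they were 3 without a filter (4.98%) and 3 with the GC trend removed (7.03%). DESeq2 gave 2 (6.2%) and only the libraries compared gave 10 (14.9%). For the share outside exons, 1 scaling factor per library gave 10 in siPFDN5 after serum (38.5%). Genes overlapping no other gene gave 0 there (1.17%) and 1 for serum, SNHG17 (26.7%).

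Leaving out 1 library gave these lowest and highest counts, over bodies, exons and the share outside exons: siPFDN2 before serum 0 to 14, 0 to 15 and 0 to 2; siPFDN5 before serum 0 to 6, 0 to 8 and 0 to 3; siPFDN2 after serum 0 to 1, 0 to 7 and 0 to 1; siPFDN5 after serum 0 to 14, 0 to 13 and 0 to 11; averaged serum 2 to 22, 1 to 22 and 1 to 11. Over bodies and exons they were 0 to 2 and 0 to 3 for serum in siControl, 0 to 19 and 0 to 20 in siPFDN2, 1 to 19 and 0 to 19 in siPFDN5, and 0 to 13 and 0 to 17 (siPFDN2) or 0 to 12 and 0 to 10 (siPFDN5) for the differences of responses. Most of the highest counts came without either siPFDN2 library before serum, which by construction removes that pair from the shared spread; the highest counts for the share outside exons came without siControl after serum replicate 2 (11 in siPFDN5 after serum) or replicate 1 (11 for averaged serum, 3 in siPFDN5 before serum). The differences between the 2 replicates correlated between groups with r from -0.32 to 0.59 over 15 group pairs, 4 of them above 0.1. The labels do not say whether the numbers pair the samples, and these values do not settle it. With the replicate block 1, 4 and 6 members were called over bodies in siPFDN5 after serum, serum in siPFDN5 and averaged serum.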

Other observations

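Between the 2 libraries of siPFDN2 before serum, the members differed with their GC content. The log2 ratio of replicate 2 to replicate 1 was above 0 in 5 of 29 members, with a median of -0.29, and ran from -1.16 in SNHG6 to 0.62 in SNHG17. Across the 29 members it had a Pearson r of 0.46 and a Spearman rho of 0.51 with the GC content of the longest transcript. Across 27632 genes these were 0.65 and 0.67. SNHG17, which carries SNORA71A to SNORA71D, was at 31.8 CPM in replicate 1 and 49.1 in replicate 2, and at 22.7 to 36.9 in the other 10 libraries. SNHG31, an antisense RNA that overlaps ABCA12, was at 5.70 CPM in siControl after serum replicate 1 and 2.85 in replicate 2.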
